A study of Drosophila melanogaster with 16 samples.

Results

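The genes described here encode the proteins of the mitochondrial ribosome of Drosophila melanogaster. They were taken as the probe sets whose single platform gene symbol starts with mRpL (large subunit) or mRpS (small subunit), and the brightest probe set, by mean over all arrays, stood for each gene. This gave 69 genes, 44 of the large and 25 of the small subunit, of 11982 genes with a probe set of their own. They were measured by 71 probe sets, because mRpL47 and mRpS11 had 2 each. The RefSeq annotation lists 73 genes with such symbols, and the 4 others are not analysed here.

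Mitochondria carry their own ribosome, which translates the few proteins encoded in mitochondrial DNA, all of them parts of the respiratory chain and ATP synthase. Its proteins are encoded in the nucleus, made in the cytosol and imported, and they assemble with the mitochondrial ribosomal RNAs into a large subunit, where peptide bonds form, and a small subunit, where the messenger is read. Some of these proteins have counterparts in the bacterial ribosome, and others are found only in mitochondria.

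The study asked which transcripts distinguish a fly stock that tolerates α-amanitin, the mushroom toxin that blocks RNA polymerase II. Ama-KTT/M/2 is a resistant stock derived from Ama-KTT, which was collected in Taiwan, and it is isogenic for chromosomes 2 and 3 but not for the X chromosome. Ama-KTT/M/2 larvae raised on food with α-amanitin (6 arrays, KTT_LC50) were compared with Ama-KTT/M/2 larvae raised on non-toxic food (5 arrays, KTT), and these with larvae of the sensitive laboratory wild type Canton-S on non-toxic food (5 arrays, CS). The toxin dose was 1.5 μg per g of food in the study's methods, whereas the sample labels give the same figure in mg. Each array held RNA from a pool of 10 whole late larvae that were still feeding, picked at random across tubes, and the sex of the larvae was not given. The stock and the wild type differ throughout their genomes, so no difference between them can be assigned to resistance, and larvae on the toxin grew more slowly. In whole larvae, fewer cells of a type and less RNA per cell cannot be told apart.

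Levels are probe set intensities on a linear scale, and changes are differences of log2(intensity + 16), fitted with limma over all 18769 probe sets with Benjamini-Hochberg adjustment. A gene was called when its adjusted p was under 0.05 and the fitted change was at least 2-fold. The offset of 16 slightly shrinks the changes of dim genes. Levels of different genes were not compared as amounts of transcript, because probe sets bind their targets with unequal strength, and brightness is used below only as a property of the probe sets. Pool intensities of the mitochondrial ribosomal protein genes ran from 145 to 2198, all above the array medians of 62.4 to 72.9, and no 2 of the 16 arrays held identical values.

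The genes moved as a block. Averaged over the 69 genes, log2(intensity + 16) lay between 8.99 and 9.67 in the 6 KTT_LC50 pools, between 9.86 and 10.01 in the 5 KTT pools and between 8.85 and 9.20 in the 5 CS pools. All KTT pools therefore lay above every pool of the other groups, whereas the KTT_LC50 and CS pools overlapped. By group mean, 64 of the 69 genes were highest in KTT, intermediate in KTT_LC50 and lowest in CS. The genes mRpS5, mRpS11, mRpL39 and mRpL48 were highest in KTT and lowest in KTT_LC50, and mRpL33 was highest in KTT_LC50.

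**Figure D1:**
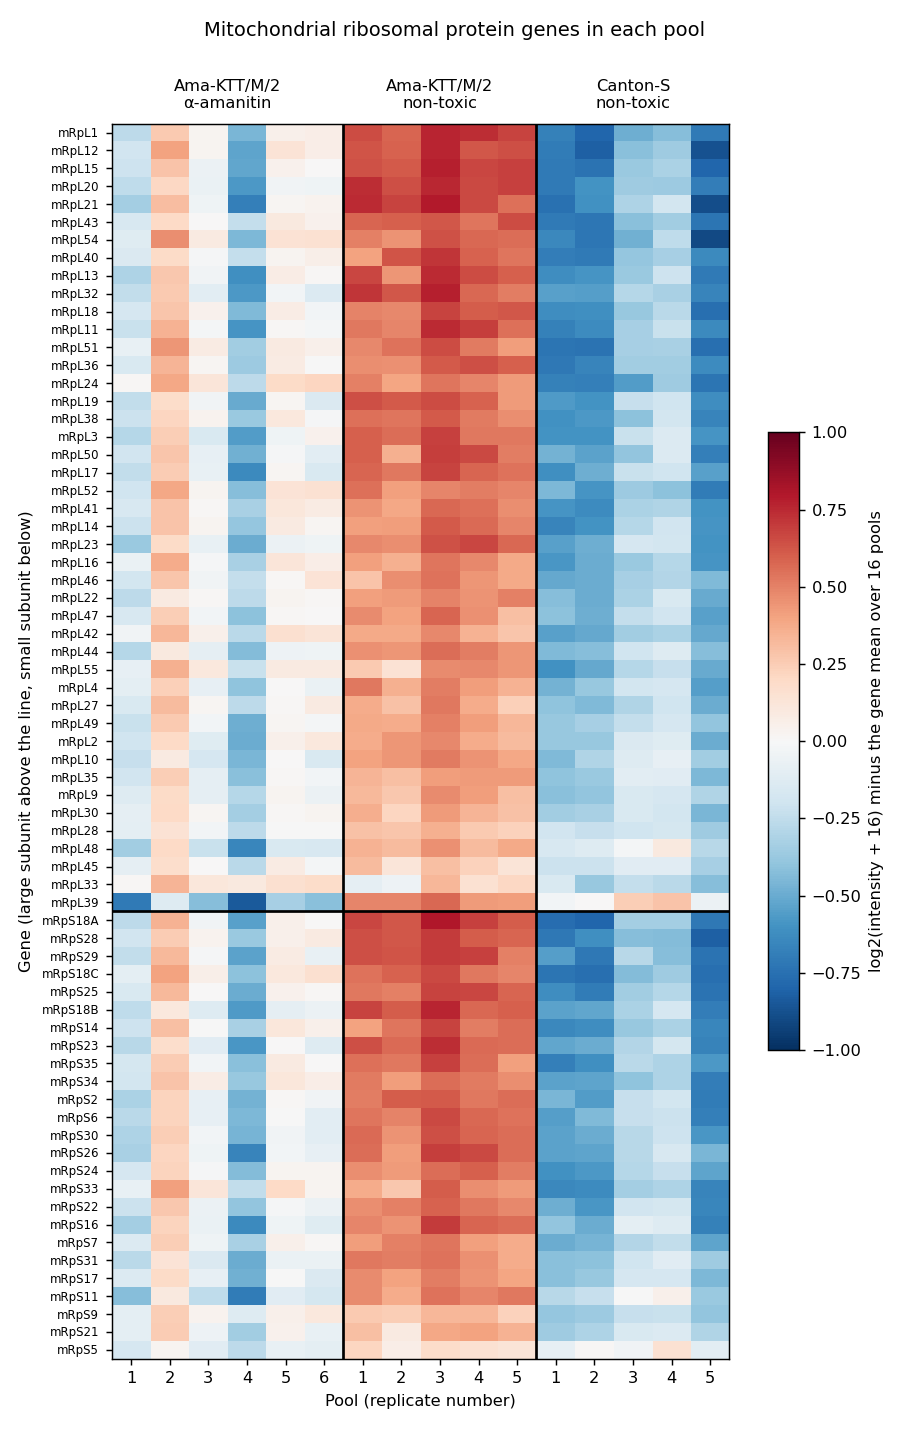
Each cell is log2(intensity + 16) of a gene in a pool minus that gene's mean over the 16 pools, with genes sorted within each subunit by the change between non-toxic Ama-KTT/M/2 and Canton-S. The KTT columns are the highest for nearly all genes, KTT_LC50 pool 2 stands above the other toxin-fed pools, and the lines of mRpL33, mRpL39 and mRpS5 break the common pattern.

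On non-toxic food, larvae of the resistant stock had higher levels of mitochondrial ribosomal protein transcripts than wild-type larvae. Of the 69 genes, 28 were called higher and 0 lower, against 3.27% of all probe sets called higher, and 16 were called when the values were quantile normalized once more. When the fold limit was dropped, each of the 69 genes passed in the upward direction in limma, the largest adjusted p being 0.0475 for mRpS5, against 24.6% of all probe sets. By the rank product, the test used in the study, 57 passed without a fold limit. The share of all probe sets for that count was not computed. In 68 genes every KTT pool lay above every CS pool, against 18.8% of all probe sets, and mRpS5 was the exception. The median log2 fold change was 0.97 over the genes and 0.01 over all probe sets. The 2-fold limit ran through the middle of the genes, so the count of 28 says little about which genes differed from the others: mRpS34 at 1.99-fold and mRpL17 at 1.99-fold were not called, and mRpL50 at 2.01-fold was.

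The large subunit genes with the highest changes were mRpL1, mRpL12, mRpL15 and mRpL20. The product of mRpL1 belongs to a mobile stalk beside the exit path of the spent tRNA. Its intensity was 1010, 962, 1092, 1073 and 1031 in the KTT pools, against 392.3, 361, 449, 471 and 385 in the CS pools. The lowest KTT pool was thus well above the highest CS pool, and the log2 fold change was 1.30 ± 0.11 (SE; limma adjusted p = 1.2e-07). mRpL12 encodes the protein of the other stalk, which in bacteria recruits the translation factors. It measured 2009, 1952, 2198, 2002 and 2028 in the KTT pools, against 792, 726, 964, 1007 and 701 in the CS pools, with no overlap and a log2 fold change of 1.28 ± 0.14 (SE; limma adjusted p = 1.5e-06). mRpL15 and mRpL20, the second of them a homolog of a bacterial protein needed early in large subunit assembly, changed by 1.26 and 1.24 on the log2 scale.

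Among small subunit genes the highest changes were those of mRpS18A, mRpS28, mRpS29 and mRpS18C. Animals have several S18 genes in place of the single bacterial one, and the mammalian counterpart of mRpS18A sits in the large subunit in spite of its name. mRpS18A measured 1315, 1273, 1436, 1324 and 1259 in the KTT pools, against 476, 468, 644, 643 and 492.9 in the CS pools, which did not overlap. Its log2 fold change was 1.27 ± 0.14 (SE; limma adjusted p = 1.3e-06). mRpS28 averaged 673 ± 22.2 in KTT and 279 ± 35.01 in CS (SD, n = 5 each), a log2 fold change of 1.23. mRpS29, whose mammalian homolog is the GTP-binding protein DAP3, and mRpS18C both changed by 1.17.

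At the other end, mRpS5 hardly differed. It encodes a protein of the mRNA entry side of the small subunit, and it measured 1647, 1486, 1608, 1573 and 1547 in the KTT pools, against 1336, 1431, 1380, 1578 and 1319 in the CS pools. CS pool 4 lay above 3 of the KTT pools, and the log2 fold change was 0.16 ± 0.06 (SE; limma adjusted p = 0.0475). It no longer passed in 17 of the alternatives tried. Of the large subunit genes, those with the smallest changes were mRpL39 by 0.39, mRpL33 by 0.40, mRpL45 by 0.42 and mRpL48 by 0.46, and their KTT and CS pools did not overlap. The other small subunit genes at this end were mRpS21 at 0.56, mRpS9 at 0.60 and mRpS11 at 0.64.

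**Figure D2:**
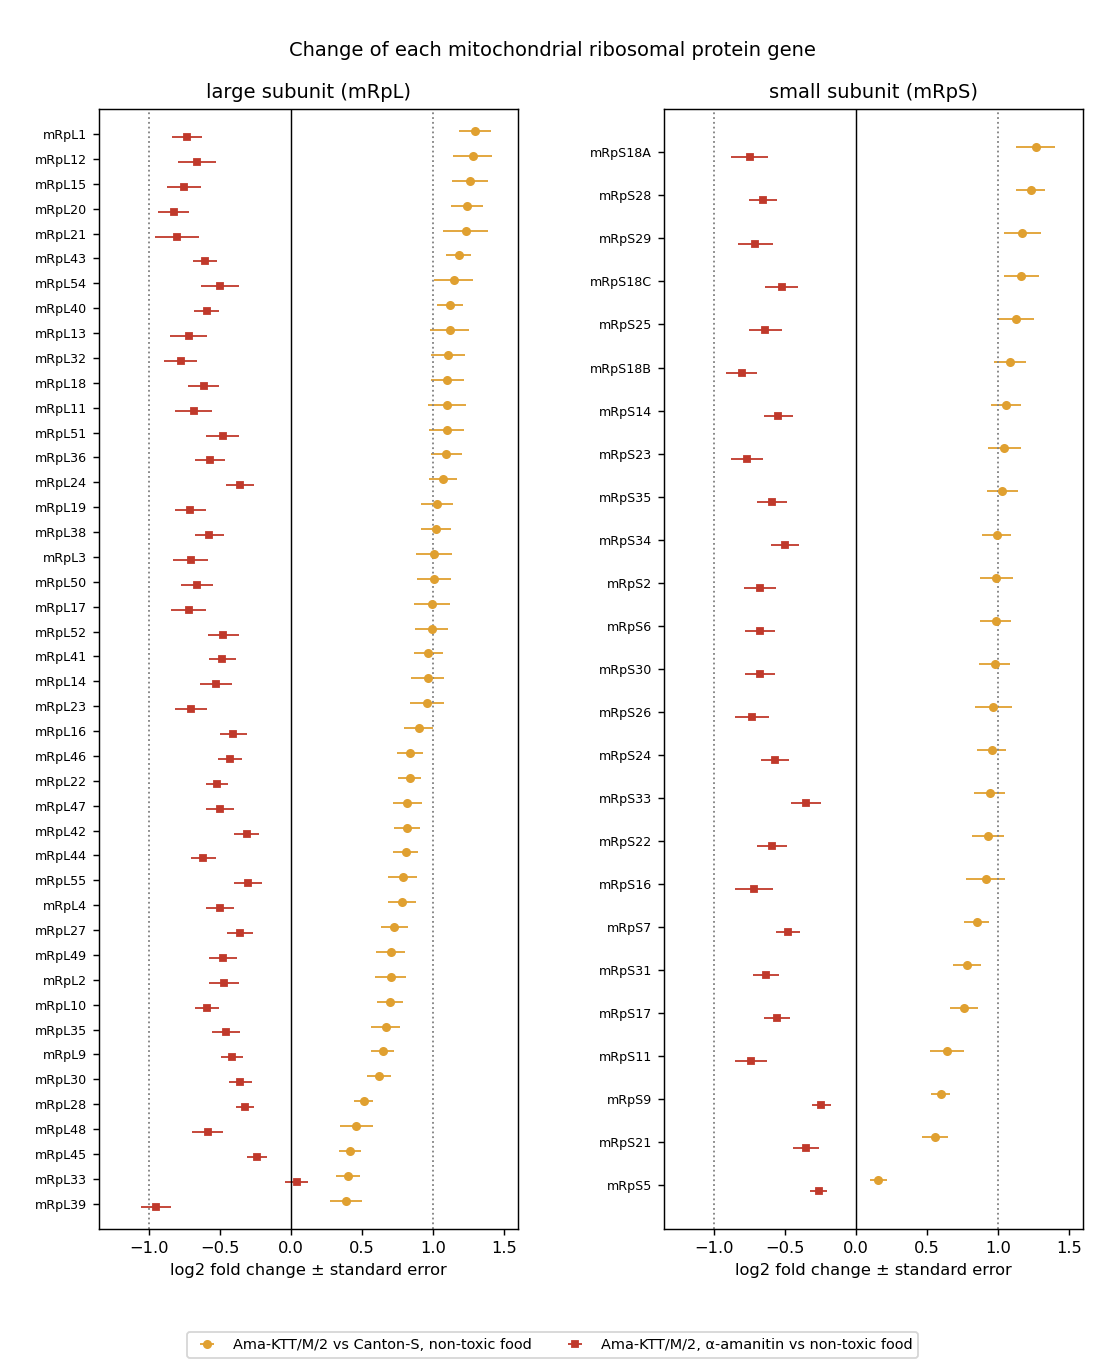
Points are log2 fold changes with standard errors for each gene, large subunit left and small subunit right. Circles compare non-toxic Ama-KTT/M/2 with Canton-S, squares compare toxin-fed with non-toxic Ama-KTT/M/2, and dotted lines mark a 2-fold change. Circles spread from 0.16 to 1.30 and squares from -0.95 to 0.04.

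The spread between genes was wider than the error of a gene. The SD of the log2 fold changes over the 69 genes was 0.25, against a median SE of 0.11 per gene, and an SD of 0.61 over all probe sets. To ask which genes departed from the middle of the block, the median of the gene-centred log2 values over the 69 genes was subtracted from each array and the whole table was fitted again. By this measure 15 genes changed more and 17 changed less than the block at an adjusted p under 0.05. Of all probe sets 94.6% departed from it, but the subtraction itself shifted them, so this share is no background. With so many departing, the adjustment of p was slight, and the filter on dim probe sets gave 41 departing genes, against 32. The largest departures below were mRpS5 (-0.78), mRpL39 (-0.55), mRpL33 (-0.54) and mRpL45 (-0.52), and those above were mRpL1 (0.36), mRpL12 (0.34), mRpS18A (0.33) and mRpL15 (0.32). Both subunits contributed to both ends.

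On the toxin the block was lower. In limma 0 of the 69 genes were called lower in KTT_LC50 than in KTT, against 1.11% of all probe sets, since no change reached 2-fold, and the rank product used in the study also called 0. Without the fold limit 68 were lower in limma at an adjusted p under 0.05 (68 at an unadjusted one), against 16.5% of all probe sets. The rank product gave 42 without the fold limit, with no share of all probe sets computed. In 58 genes every KTT_LC50 pool lay below every KTT pool, against 11.5% of all probe sets. The median log2 fold change was -0.59, a 1.50-fold lower level, and 0.02 over all probe sets. The overlaps in the other 11 genes came mostly from 1 array: without KTT_LC50 pool 2, the pools of 68 genes did not overlap, against 14.2% of all probe sets. This comparison and the preceding one share the KTT arrays, so that a chance deviation of those arrays would push them in opposite directions.

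The gene with the largest decrease was mRpL39, found only in mitochondria and related in part to threonyl-tRNA synthetase in mammals. Its KTT_LC50 pools ranged from 250 to 418 with a median of 339, and its KTT pools measured 650, 651, 690, 621 and 619. The groups were far apart, with a log2 fold change of -0.95 ± 0.11 (SE; limma adjusted p = 8.1e-06). Without KTT_LC50 pool 2 it passed the 2-fold limit at -1.02, and it was then the only gene called. The next large subunit genes were mRpL20 at -0.82, mRpL21 at -0.80 and mRpL32 at -0.78. In the small subunit mRpS18B changed by -0.81, mRpS23 by -0.77, mRpS18A by -0.75 and mRpS11 by -0.74, the last a protein of the platform of that subunit.

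One gene showed no decrease. mRpL33, which encodes a small protein of the large subunit, ranged from 1359 to 1717 with a median of 1485 in the KTT_LC50 pools, and measured 1264, 1304, 1701, 1503 and 1562 in the KTT pools. The groups overlapped almost fully, and the log2 fold change was 0.04 ± 0.08 (SE; limma adjusted p = 0.733). Its departure from the block was 0.62 upward (limma adjusted p = 9.4e-05). The CS pools of mRpL33 measured 1214, 1037, 1141, 1120 and 1003, all below both Ama-KTT/M/2 groups. Small decreases were also found for mRpL45 (-0.24), whose mammalian homolog anchors the ribosome at the inner membrane beside the exit tunnel, and for mRpL55 (-0.30) and mRpL42 (-0.31). In the small subunit they were found for mRpS9 (-0.24), whose bacterial homolog reaches the tRNA in the P site, and for mRpS5 (-0.26), mRpS21 (-0.35) and mRpS33 (-0.35). In all, 13 genes were shifted above and 10 below the change of the block. Of all probe sets 90.1% departed from it, a share that the subtraction itself produced and that is no background. The SD over the genes was 0.17, against a median SE of 0.11 and an SD of 0.46 over all probe sets.

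**Figure D3:**
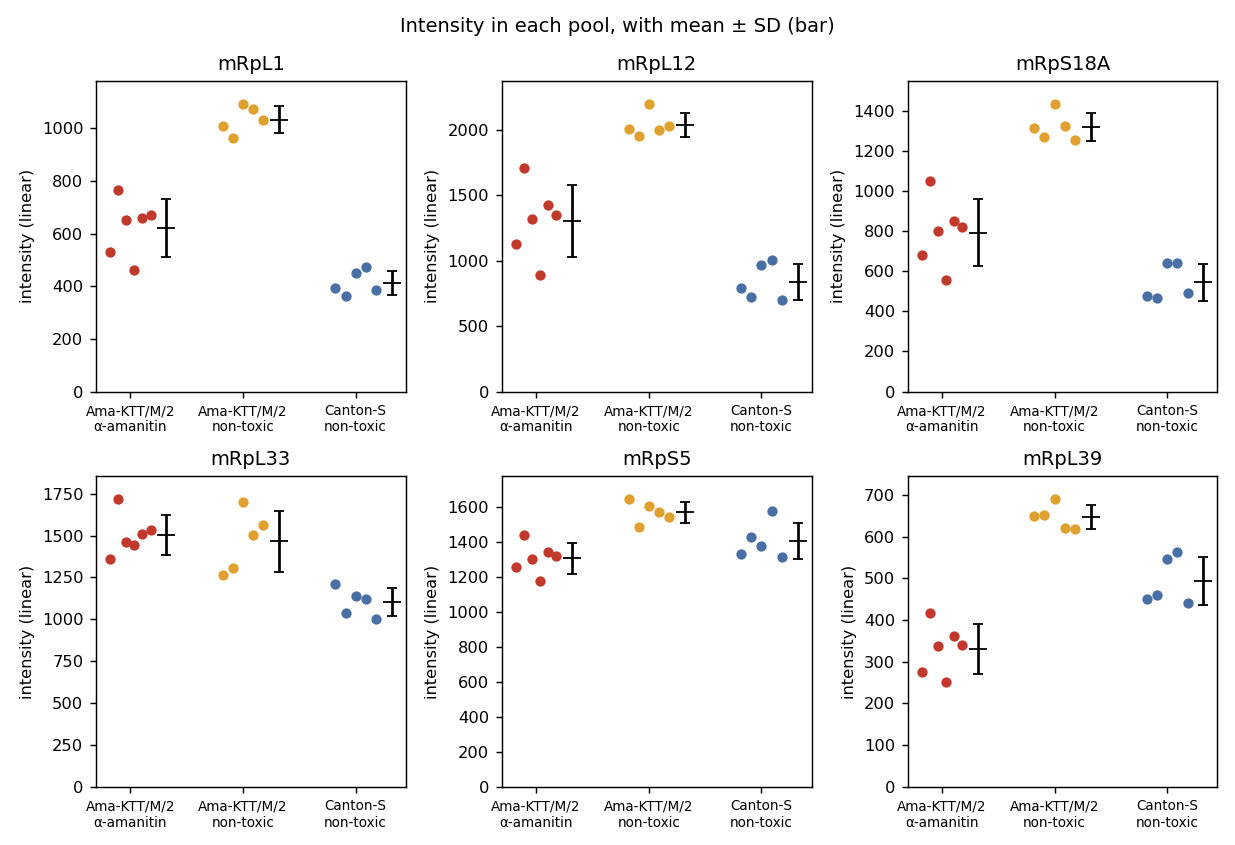
Intensity of 6 genes in each pool on a linear axis from 0, with the mean and SD of each group beside the points. In mRpL1, mRpL12 and mRpS18A the toxin-fed pools lie between the other groups, in mRpL33 they overlap the non-toxic Ama-KTT/M/2 pools, and in mRpL39 they lie below both.

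Set against Canton-S, toxin-fed Ama-KTT/M/2 larvae kept a smaller excess. Limma and the rank product called 0 of the 69 genes higher, against 1.53% of all probe sets in limma, and 0 lower, against 1.63%. Without the fold limit 49 were higher in limma (61 at an unadjusted p under 0.05), against 19% of all probe sets, and 1 was lower, against 11.7%. The rank product gave only 9 higher and 1 lower without the fold limit, so this count depended on the test. Its share of all probe sets was not computed. The median log2 fold change was 0.37 over the genes and 0.04 over all probe sets. In 10 genes all KTT_LC50 pools lay above all CS pools, against 11.1% of all probe sets, a share near the background. The count was 40 without KTT_LC50 pool 4, against 14.1% of all probe sets, and 19 without CS pool 4, against 13.3%.

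The highest excess was that of mRpL24, whose bacterial homolog starts large subunit assembly. It ranged from 567 to 902 with a median of 763 in the KTT_LC50 pools, against 421, 419, 458, 531 and 407 in the CS pools. These did not overlap, and the log2 fold change was 0.71 ± 0.10 (SE; limma adjusted p = 2.2e-05). It was followed by mRpL54 at 0.65, mRpS18C at 0.64, mRpL51 at 0.62, mRpL12 at 0.62 and mRpS33 at 0.59. The gene that was lower was mRpL39, whose KTT_LC50 range of 250 to 418 lay wholly below its CS pools of 451, 461, 547, 563 and 441. Its log2 fold change was -0.57 ± 0.11 (SE; limma adjusted p = 6.3e-04). The genes mRpL48 at -0.13, mRpS5 at -0.10 and mRpS11 at -0.10 did not pass the test, with adjusted p of 0.423, 0.201 and 0.566 in limma. The second, dimmer probe set of mRpS11 gave -0.46 in this comparison (limma adjusted p = 0.0159), and 0.35 (limma adjusted p = 0.0514) in the comparison of KTT with CS. The probe sets of mRpL47 gave 0.82 and 0.88 between KTT and CS.

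The 2 subunits changed nearly alike. Between KTT and CS the median log2 fold change was 0.97 for large and 0.98 for small subunit genes, with 19 of 44 and 9 of 25 called higher. Between KTT_LC50 and KTT the medians were -0.55 for large and -0.64 for small subunit genes, and between KTT_LC50 and CS they were 0.40 and 0.34. The difference of the medians was -0.012 in the first comparison and 0.086 in the second. Most of this second difference of medians rested on how genes were assigned: with mRpS18A and mRpS30 counted as large subunit, as in the mammalian ribosome, it was 0.018. With genes assigned by symbol, the mean of the large subunit genes exceeded that of the small subunit genes narrowly in each pool. The margin was 0.081 to 0.104 in KTT_LC50, 0.042 to 0.053 in KTT and 0.050 to 0.078 in CS. Means were not recomputed with the other assignment. The KTT_LC50 pools lay above all others, and the offset itself depends on the probe sets.

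Other features of the genes separated them little. The 40 genes with the numbers used for bacterial proteins (up to 36 in the large and 21 in the small subunit) had a median log2 fold change of 0.97 between KTT and CS, and the 29 others had the same median. Between KTT_LC50 and KTT these medians were -0.58 and -0.59. The numbers are only a rough guide to ancestry, since a few proteins with higher ones have bacterial relatives. In the small subunit the 12 genes numbered above 21 had an SD of 0.12 in the comparison of KTT with CS, whereas the 13 others had an SD of 0.30 and included mRpS5, mRpS9, mRpS11 and mRpS21. The genes lay on all major chromosome arms, 11 on X, 12 on 2L, 10 on 2R, 17 on 3L and 19 on 3R. The KTT against CS medians were 0.96 on X, 0.92 on 2L, 1.05 on 2R, 0.99 on 3L and 0.93 on 3R, so the X chromosome, which is not isogenic in the stock, did not stand apart. All genes on each of these arms had a median between 0.01 and 0.04.

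The genes also moved together from pool to pool within a group. Their median coefficient of variation was 16.2% in KTT_LC50, 5.15% in KTT and 12.4% in CS. All 69 genes had their highest KTT_LC50 value in pool 2, and 67 had their lowest in pool 4, whereas mRpL33 and 1 other were lowest in pool 1. In CS, 55 genes were highest in pool 4 and 13 in pool 3, and 47 were lowest in pool 5. In KTT, 57 were highest in pool 3. After removal of group means, the first principal component held 92.1% of the variance of the 69 genes, against 29.5% over the 9718 probe sets whose mean reached 64.

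The strength of this shared movement varied between genes. The slope of each gene's within-group deviations on the mean deviation of the others had a median of 1.04 and ran from 0.41 in mRpL33 to 1.57 in mRpL21, with low values also in mRpS5 (0.43), mRpL28 (0.50), mRpS9 (0.55) and mRpL45 (0.63). The correlation behind the slope had a median of 0.96 and was over 0.9 in 62 genes, and it was lowest, 0.52, in mRpL33. Across the 69 genes, which are not independent, Spearman's rho of the slope was 0.63 with the log2 fold change of KTT against CS and -0.72 with that of KTT_LC50 against KTT. Genes that followed the block weakly between pools thus were mostly those that changed little between groups. mRpL39 and mRpL48 were exceptions, with slopes near the median and small differences between KTT and CS, and so were mRpL40 and mRpL43, with slopes of 0.77 and 0.79 and changes of 1.12 and 1.18. Brightness moved with the same pattern: rho of log2 mean intensity was -0.40 with the first change, 0.40 with the second and -0.35 with the slope. The median change between KTT and CS was 1.02 in the dimmest 23 genes, 0.97 in the middle 23 and 0.79 in the brightest 23. The part of brightness in these differences was not tested.

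**Figure D4:**
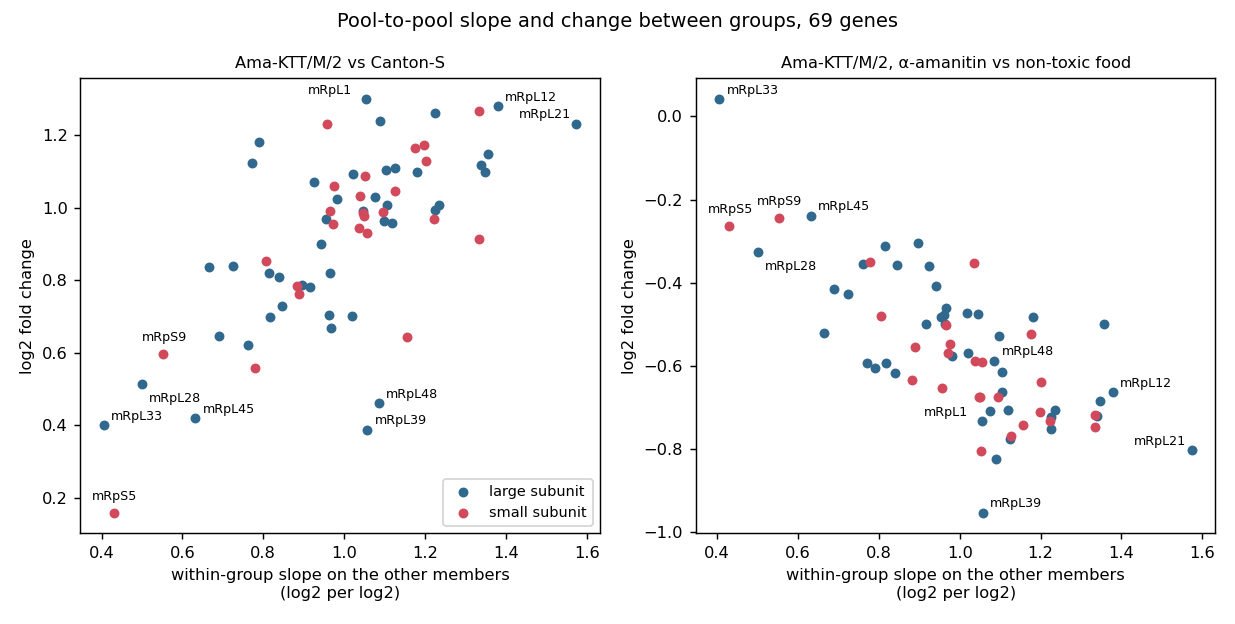
Each point is a gene, with its within-group slope on the other genes of the block (horizontal) and its log2 fold change (vertical), coloured by subunit. Genes with slopes under 0.65, such as mRpL33, mRpS5, mRpL28, mRpS9 and mRpL45, lie near the small-change end of both panels.

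In the 2 comparisons that include KTT, most markers of the late larval salivary gland and fat body moved opposite to the block. Between KTT_LC50 and CS, 10 of 12 glue genes had positive changes, with a median of 0.36 and 0.37 for the block. The median SE of these glue changes was 1.24, so their direction is uncertain. In that comparison 0 glue genes were called, against 1.53% of all probe sets called higher. Without the fold limit 1 glue gene was higher, against 19%. The 3 fat body genes had a median of -0.23, with 2 negative and 1 positive. Of these 0 passed, against 19% of all probe sets higher and 11.7% lower. The 12 glue and new-glue genes of the salivary gland, which are expressed in the last larval stage, averaged 6.37 in KTT_LC50 pool 2 and 10.98 to 11.86 in the other KTT_LC50 pools on the log2(intensity + 16) scale. They averaged 6.33 to 6.58 in the KTT pools, and 7.92 in CS pool 4 against 9.99 to 11.05 in the other CS pools. Of the 12, the Sgs genes and Eig71Ee, 8 in all, were called lower in KTT than in CS, against 2.42% of all probe sets, and higher in KTT_LC50 than in KTT, against 1.83%. The new-glue genes ng1 to ng4 had changes of the opposite sign: ng4 was called higher in KTT than in CS, at a log2 fold change of 1.50, ng2 (0.91) and ng3 (0.60) were higher without the fold limit, and ng1 (0.40) did not pass. Between KTT_LC50 and KTT, ng1 (-0.55) and ng2 (-0.67) were lower without the fold limit, whereas ng3 (-0.13) and ng4 (-1.31) did not pass. The 3 fat body genes Lsp2, Fbp1 and Fbp2, which are expressed late in larval life, averaged 6.88 in KTT_LC50 pool 2 and 11.18 to 13.28 in the other KTT_LC50 pools, 4.29 to 6.47 in KTT pools and 9.58 to 12.07 in CS pools. The pools with the lowest glue mean of KTT_LC50 and of CS were those with the highest mean of the mitochondrial ribosomal protein genes in their group. In KTT the lowest glue mean, 6.33 in pool 4, lay beside 6.34 in pool 3, where the block was highest (10.01). Pools 3 to 5 of KTT differed too little in glue mean to be ranked. KTT_LC50 pool 1 had the next lowest glue mean after pool 2 (10.98, with 11.08 in pool 5), and its block mean (9.22) was the lowest after pool 4. The fat body means of CS rose from pool 4 (9.58) through pools 3, 2 and 1 to pool 5 (12.07), the reverse order of their block means. In the other groups this order did not hold throughout. The part of these tissues, or of larval age, in the group differences was not tested. Without KTT_LC50 pool 2 the median change between KTT_LC50 and KTT was -0.64, and without CS pool 4 the median change between KTT and CS was 1.03 with 39 genes called.

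Genes of neighbouring functions moved to different degrees. The mitochondrial ribosomal proteins that carry other names, tko (S12, of the decoding centre) and bonsai (S15), changed like the block, by 1.01 and 0.99 between KTT and CS and by -0.49 and -0.54 between KTT_LC50 and KTT. A list of 30 genes held other parts of mitochondrial translation, such as factors and aminoacyl-tRNA synthetases. It also held genes of mitochondrial transcription, such as PolrMT, TFAM and mtTFB2. Of these, 5 were called higher in KTT than in CS, against 3.27% of all probe sets. Without the fold limit 28 were higher, against 24.6%, and the median was 0.66. The largest changes were those of bsf, which encodes an RNA-binding protein related to mammalian LRPPRC, at 1.41, and mEFTu1, the elongation factor that delivers tRNA, at 1.18. In KTT_LC50 against KTT, 2 of the 30 were called lower, mEFG1 at -1.04 and bsf at -1.01, against 1.11% of all probe sets. The median was -0.41. Nuclear respiratory chain and ATP synthase genes, whose products join the proteins made on this ribosome, changed far less. Of 58, limma called 0 in either comparison, against 3.27% of all probe sets called higher in the first and 1.11% called lower in the second. Without the fold limit 51 were higher in KTT than in CS (55 at an unadjusted p under 0.05), against 24.6%, at a median of 0.27. In KTT_LC50 against KTT 33 were lower (44 at an unadjusted p under 0.05), against 16.5%, at a median of -0.15. A further 18 genes, whose symbols mark them as paralogs of these, were kept apart. Their medians were 0.01 and 0.17. Of these 0 were called, near the 3.27% of all probe sets called higher in the first comparison and 1.11% lower in the second.

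Proteins of the cytosolic ribosome changed little as well. Of 34 such genes, paralogs such as RpS19b and RpS5b included, limma called 0 in either comparison. Of all probe sets 3.27% were called higher in the first and 1.11% lower in the second, so 0 is near the background. Without the fold limit 27 were higher in KTT than in CS (28 at an unadjusted p under 0.05), against 24.6% of all probe sets. In KTT_LC50 against KTT 8 were lower (16 at an unadjusted p under 0.05), against 16.5%. The medians were 0.23 between KTT and CS and -0.11 between KTT_LC50 and KTT. Genes of ribosome biogenesis, which build the cytosolic ribosome in the nucleolus, changed about as much as the mitochondrial ribosomal protein genes or more. Of 44, 26 were called higher in KTT than in CS, against 3.27% of all probe sets. The median was 1.04, and Surf6 at 1.66 and Nop10 at 1.596 led. In KTT_LC50 against KTT 7 were called lower, against 1.11% of all probe sets, at a median of -0.81. The probe sets of respiratory chain and cytosolic ribosome genes were bright, with pool means on the log2(intensity + 16) scale from 11.53 to 11.94 and from 12.01 to 12.40, and the part of brightness in their small changes was not tested.

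**Figure D5:**
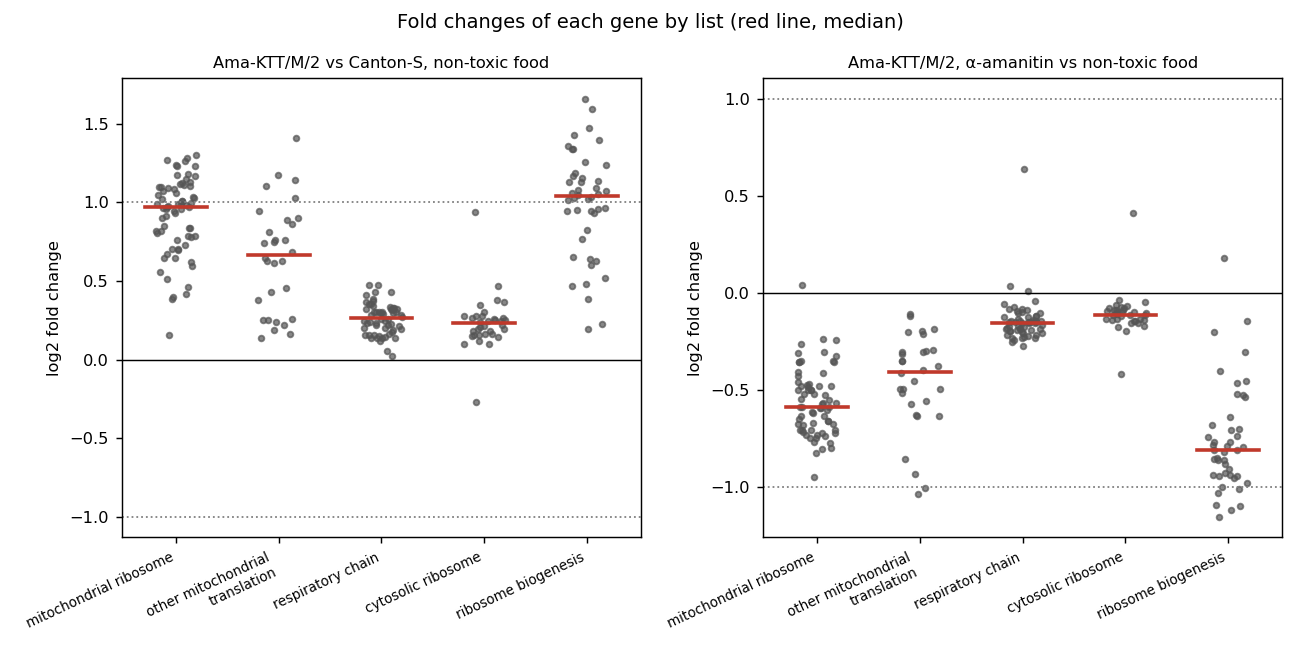
Each point is the log2 fold change of a gene and each red line the median of its list, for non-toxic Ama-KTT/M/2 against Canton-S (left) and toxin-fed against non-toxic Ama-KTT/M/2 (right). Medians of the mitochondrial ribosome are 0.97 and -0.59, between those of respiratory chain and ribosome biogenesis genes, and dotted lines mark a 2-fold change. The list of other mitochondrial translation also holds genes of mitochondrial transcription.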

How the data were processed

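RNA of 16 larval pools was hybridised to Affymetrix Drosophila Genome 2.0 arrays, 1 array per pool. The deposited intensities are linear: the authors extracted them with Affymetrix Expression Console 1.2 and summarised probe sets by PLIER with quantile normalization and mismatch adjustment. Probe sets were named by the platform table (13647 with 1 gene, 402 with several). Of 18952 probe sets, 183 controls were left out.

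From these values log2(intensity + 16) was fitted with limma 3.58.1 in R 4.3.3 (3 groups, 1 shared spread, no covariate). The fit was also run on simulated data in which probe sets varied independently. That run says nothing about counts among genes that move together, as these did. The 16 arrays limit the precision, and the pools of a group measure only the spread between pools raised together. Lists were described by counts and medians. Genes named were drawn from the 4 largest and 4 smallest changes per subunit and comparison, the strongest departures from the block, tko, bonsai and leading genes of other lists. Not all were described: mRpL10, mRpS31 and mRpS16, with small changes between KTT_LC50 and CS, and the departures in that comparison were left out. mRpL47 was named for its 2 probe sets. mRpL28, mRpL40, mRpL43, mRpS34, ng1 to ng4, mRpL17 and mRpL50 were named after their values were seen. Genes and lists were chosen with earlier results of these data known. Alternatives were other offsets, a filter on dim probe sets, other normalizations, probe sets averaged, other samples in the fit, the replicate block, the study's rank product, and each pool left out. Promoter sequences were not analysed here.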

Additional observations from a re-analysis of the deposited data

How the results depend on the processing

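With the deposited values quantile normalized once more, 16 genes were called higher in KTT than in CS (28 in the analysis above), their median log2 fold change was 0.88, and the large minus small subunit difference between KTT_LC50 and KTT was 0.059. An offset of 64 gave 19 called genes and an offset of 1 gave 34, as did the rank product. The SD of the KTT against CS changes was 0.256 with offset 1 and 0.222 with offset 64. The subunit difference between KTT and CS, -0.012, changed sign to 0.014 with offset 64, 0.0045 with mRpS18A and mRpS30 counted as large subunit, 0.0012 without CS pool 5 and 0.0027 without KTT pool 1. The same assignment moved the difference between KTT_LC50 and KTT to 0.018. The change of mRpL33 between KTT_LC50 and KTT was -0.0092 without KTT pool 1 and 0.097 without KTT pool 3. In the 17 alternatives in which mRpS5 no longer passed between KTT and CS, its change kept its sign; with quantile normalization repeated it was 0.08 (limma adjusted p = 0.281). The cause of these shifts was not tested.

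Leaving out each pool in turn, 23 to 39 genes were called between KTT and CS, the median was 0.94 to 1.03, the SD 0.239 to 0.257 and the subunit difference -0.024 to 0.0027. Between KTT_LC50 and KTT, 0 to 1 genes were called and the subunit difference was 0.057 to 0.094. Between KTT_LC50 and CS, 35 to 64 genes passed without the fold limit, against 50, with 35 also after scaling arrays to the same median. The counts of genes without overlap, recomputed after the data were seen, are given above. Replicate numbers were not taken as pairs in the main fit. Same-numbered pools of different groups correlated at -0.52 to 0.39 (median 0.06), and pools with other numbers at -0.64 to 0.48 (median -0.02). With the replicate block 12 genes departed from the block of genes between KTT_LC50 and KTT (23 without it), and 65 were lower without the fold limit (68). The filter on dim probe sets, the mean of a gene's probe sets and fits of the 2 groups alone changed no count by over 1.5 times. The planned promoter search was not run.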
